A study of Mus musculus with 4 samples.

Results

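Extracellular vesicles (EVs) released by 2 mouse mammary carcinoma lines, 4T1 and 4TO7, were compared by small RNA sequencing, with 1 library of 4T1 EVs and 1 library of 4TO7 EVs. Sense-strand reads of 18 nt or more were summed for each mature miRNA, and miRNAs with 50 or more reads in either EV library were kept. This gave 82 miRNAs of 387 with at least 1 such read in either EV library, and of 210 that reached 50 reads in any of the 4 libraries of the series. The 82 miRNAs held 96.9% of the listed miRNA reads of 4T1 EVs and 96.8% of those of 4TO7 EVs. Tables of genome regions and of read lengths from both EV libraries were used beside them. The other 2 libraries were made from the 4T1 and the 4TO7 cells themselves, and their values are given for many of the miRNAs.

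Per the labels, all groups were cultures in DMEM with 10% serum described as EV-free, and no agent, transgene or edited gene is named for any of them. EVs were collected by differential centrifugation that ended in ultracentrifugation, so the preparations were selected by sedimentation and not by a surface marker. RNA was depleted of ribosomal RNA and cut from a gel at the size of miRNAs. Each group was a single library of a single line, so no replicate error could be estimated. The calls below compare libraries and not conditions, and all intervals are 95% intervals of counting error alone. The reads carried no molecular identifiers, so they need not stand for separate molecules. A line, its culture, its EV preparation and its library cannot be told apart. Fewer EVs that hold a miRNA and fewer copies in each EV cannot be told apart either.

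The 4T1 EV library held 9729966 reads and the 4TO7 EV library 7111921, of which 78.4% and 72.7% of those processed aligned to the genome. Few of these were miRNA reads. Reads of 18 nt or more that matched a mature miRNA numbered 43783 in 4T1 EVs and 32564 in 4TO7 EVs, which were 0.574% and 0.630% of the genome-aligned reads. In the cell libraries the share was 3.11% (4T1) and 1.09% (4TO7). Each miRNA read was listed under every mature miRNA that it matched with at most 1 mismatch, and the summed sense listings of 57962 in 4T1 EVs and 51697 in 4TO7 EVs served as library sizes. One listed read was worth 17.3 RPM (reads scaled to 1000000 listed miRNA reads) in 4T1 EVs and 19.3 RPM in 4TO7 EVs. A miRNA with 0 reads could therefore have had up to 51.8 RPM or 58.0 RPM, respectively, which is what 3 reads are worth.

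EVs are membrane-bound particles that cells release with proteins, lipids and RNA from the cell. A miRNA is cut as a short duplex from a hairpin precursor, and 1 strand is loaded into an Argonaute protein. Bases 2 to 8 from its 5′ end, the seed, pair with target mRNAs, so miRNAs with the same seed can repress overlapping targets. The 4T1 and 4TO7 lines descend from 1 spontaneous mammary tumour of a BALB/c mouse. 4T1 cells form metastases in distant organs, whereas 4TO7 cells disseminate but rarely grow there. In epithelial cells the miR-200 family keeps E-cadherin on by repressing Zeb1 and Zeb2, and let-7 represses growth regulators such as Lin28, Ras and Hmga2.

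The sequences of the miRNAs on which the results turn are shown first, because members of a family that differ at 1 or 2 bases shared reads. RefSeq entries of GRCm38.p6 matched 73 of the 82 miRNAs. The 73 sequences carried 47 seeds, of which 13 belonged to 2 or more members and together covered 39 miRNAs. Capitals mark the seed, bases 2 to 8, and sequences are written 5′ to 3′. Among the miRNAs with more reads in 4T1 EVs, the following are shown, which is not a full list:
miR-200b-3p: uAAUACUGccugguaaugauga
miR-200c-3p: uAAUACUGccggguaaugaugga
miR-200a-3p: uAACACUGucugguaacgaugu
miR-206-3p: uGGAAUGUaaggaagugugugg
miR-146a-5p: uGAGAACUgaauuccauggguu
miR-30e-5p: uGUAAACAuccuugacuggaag
miR-30a-5p: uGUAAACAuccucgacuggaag
miR-24-3p: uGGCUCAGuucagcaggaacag
miR-27a-3p: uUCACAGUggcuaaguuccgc
miR-27b-3p: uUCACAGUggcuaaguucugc
miR-10a-5p: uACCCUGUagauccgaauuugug
miR-10b-5p: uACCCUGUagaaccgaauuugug
miR-21a-5p: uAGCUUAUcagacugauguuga
miR-22-3p: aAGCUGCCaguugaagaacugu
miR-125a-5p: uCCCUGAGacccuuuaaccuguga

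Among the miRNAs with fewer reads in 4T1 EVs, the following are shown, with miR-125b-5p and let-7g-5p for comparison within a hairpin and within a family:
let-7a-5p: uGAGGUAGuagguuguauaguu
let-7c-5p: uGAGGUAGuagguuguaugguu
let-7e-5p: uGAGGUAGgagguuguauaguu
let-7f-5p: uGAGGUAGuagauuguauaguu
let-7g-5p: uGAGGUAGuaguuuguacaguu
miR-26a-5p: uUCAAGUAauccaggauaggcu
miR-148a-3p: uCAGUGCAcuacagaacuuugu
miR-181a-5p: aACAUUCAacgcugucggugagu
miR-423-3p: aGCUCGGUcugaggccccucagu
miR-423-5p: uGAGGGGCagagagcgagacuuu
miR-99b-3p: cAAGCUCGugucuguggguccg
miR-125b-1-3p: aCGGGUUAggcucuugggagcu
miR-125b-5p: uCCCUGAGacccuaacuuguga

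miR-27a-3p and miR-27b-3p have the same first 16 bases, as do let-7a-5p, let-7b-5p and let-7c-5p, whose shared stretch is ugagguaguagguugu. A read that ends there cannot be given to 1 of them. Counts of such members are therefore not independent of each other.

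An exact conditional binomial interval of the RPM ratio was computed for each miRNA. Intervals entirely above 2 gave the call higher in 4T1 EVs, and those entirely below 0.5 the call lower. By this rule 20 of the 82 miRNAs (24.4%) were higher in 4T1 EVs, 14 (17.1%) were lower and 48 were neither, so that 41.5% were called in either direction. The median log2 ratio, with 0.5 reads added to each count, was 0.14, and single values ran from −2.93 to 8.18. Scaled to genome-aligned reads in place of miRNA reads, all log2 ratios shifted by −0.40, and 11 miRNAs were higher and 18 lower. Scaled to all reads they shifted by −0.29, with 11 higher and 16 lower. Under trimmed-mean (TMM) scaling they shifted by 0.17, with 21 higher and 10 lower. The higher calls made up 58.8% of the calls under the scaling used here and 37.9%, 40.7% and 67.7% under these 3 scalings.

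**Figure D1:**
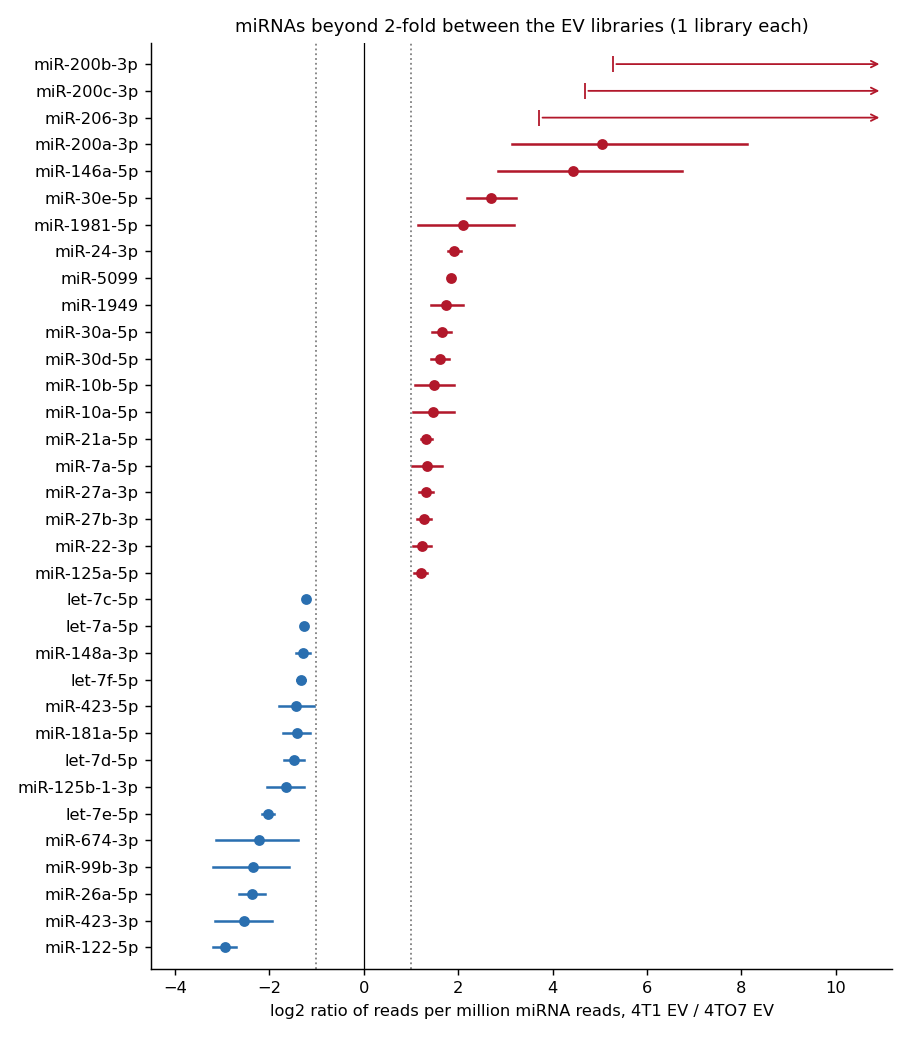
Log2 ratio of RPM in 4T1 EVs over 4TO7 EVs (horizontal axis) for the 34 miRNAs called higher (red, 20) or lower (blue, 14), with 1 library per group. Points are ratios without added reads and lines are exact 95% counting intervals; the 3 arrows start at the lower limit for miRNAs with 0 reads in 4TO7 EVs, and dotted lines mark 2-fold.

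The 3 compared members of the miR-200 family had nearly all of their reads in the 4T1 libraries, both EVs and cells. miR-200b-3p had 162 reads in 4T1 EVs, 0 in 4TO7 EVs, 1026 in 4T1 cells and 1 in 4TO7 cells. miR-200c-3p had 108, 0, 1202 and 0 reads in the same order. miR-200a-3p had 74, 2, 1146 and 0 reads. In RPM the 4T1 EV levels were 2795 for miR-200b-3p, 1863 for miR-200c-3p and 1277 for miR-200a-3p. Against a floor of 3 reads in the 4TO7 EV library, miR-200b-3p was 48.2-fold higher in 4T1 EVs and miR-200c-3p 32.1-fold higher. The lower limits of their counting intervals were 38.7 and 25.7. The ratio for miR-200a-3p was 33, with an interval from 8.82 to 278. The genes lie at 2 places in the genome: hairpins of miR-200a and miR-200b stand at chr4:156054896-156054985 and chr4:156055681-156055750 on the minus strand, and that of miR-200c at chr6:124718322-124718390 on the minus strand (GRCm38.p6). miR-200b-3p and miR-200c-3p share the seed AAUACUG and lie within 1 mismatch over their first 18 bases, while miR-200a-3p has AACACUG.

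miR-146a-5p, which represses Traf6 and Irak1 in inflammatory signalling, had 73 reads in 4T1 EVs, 3 in 4TO7 EVs, 341 in 4T1 cells and 5 in 4TO7 cells. Its EV ratio was 21.7 (interval 7.14 to 108). The ratio between the cell libraries was 20.1.

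miR-206-3p, a miRNA known for its high level in skeletal muscle, had 56 reads of 18 nt or more in 4T1 EVs, 0 in 4TO7 EVs, 154 in 4T1 cells and 0 in 4TO7 cells. It was 16.6-fold higher in 4T1 EVs against a floor of 3 reads, and the lower limit of its interval was 13.1. This difference held for long reads only. With reads of 16 nt or more, the counts were 505 and 321 and the log2 ratio was −0.07. Reads of exactly 16 nt numbered 449 in 4T1 EVs and 321 in 4TO7 EVs, and the related muscle miRNA miR-1a-3p had 465 and 354 of that length. Cells had 11 and 16 reads of 16 nt for either miRNA. Reads were listed under every miRNA that they matched with at most 1 mismatch, so both counts may hold largely the same reads. Whether the 16 nt reads came from miR-206-3p or from miR-1a-3p was not tested. All 6 muscle markers together had 62 reads of 18 nt or more in 4T1 EVs and 13 in 4TO7 EVs, and miR-206-3p gave 56 of the 62. The others did not share its direction as a set. miR-1a-3p had 5 and 3 reads, miR-499-5p 1 and 4, miR-133a-3p and miR-133b-3p 0 and 3 each, and miR-208a-3p 0 in both.

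The miR-30 family, which shares the seed GUAAACA and is abundant in many epithelia, had 3 compared members. Each was higher in 4T1 EVs, beside 24.4% higher over all 82. miR-30e-5p had 260 reads in 4T1 EVs and 36 in 4TO7 EVs, a ratio of 6.44 (interval 4.53 to 9.40). miR-30a-5p had 939 and 266 reads, a ratio of 3.15 (2.75 to 3.62), and miR-30d-5p had 964 and 282 reads, a ratio of 3.05 (2.67 to 3.49). Each was also called higher in 4T1 cells than in 4TO7 cells, at 2.65-fold for miR-30e-5p, 2.39-fold for miR-30a-5p and 2.42-fold for miR-30d-5p. miR-30a-5p and miR-30e-5p lie within 1 mismatch over their first 18 bases and so shared some of these reads. No reference sequence was found for miR-30d-5p, but its counts by length were close to those of miR-30a-5p. At 22 nt they were 809 and 208 for miR-30d-5p and 787 and 196 for miR-30a-5p. Both may hold largely the same reads, so the 3 calls are not independent of each other. Neither miR-30a-5p nor miR-30d-5p was called with a minimum of 16 nt, whereas miR-30e-5p was.

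The miR-23/27/24 clusters gave 6 compared miRNAs, of which 3 were higher in 4T1 EVs and none was lower, beside 24.4% higher over all 82. These hairpins are transcribed together, and miR-24 and miR-27 repress regulators of the cell cycle and of differentiation. miR-24-3p had 2140 reads in 4T1 EVs against 505 in 4TO7 EVs, a ratio of 3.78 (3.43 to 4.17). miR-27a-3p had 1387 against 499, a ratio of 2.48 (2.24 to 2.75), and miR-27b-3p had 1375 against 505, a ratio of 2.43 (2.19 to 2.70). Neither miR-27a-3p nor miR-27b-3p was called with a minimum of 16 or 21 nt, or when scaled to genome-aligned or to all reads, and their lowest log2 ratios over the alternatives were 0.23 and 0.20. In cells, miR-24-3p had a ratio of 1.06, while miR-27a-3p at 2.31 and miR-27b-3p at 2.35 were called higher in 4T1. Their neighbour miR-23a-3p did not follow. It had 108 reads against 88, a ratio of 1.10 (0.818 to 1.47), although its hairpin at chr8:84208518-84208592 stands next to that of miR-27a at chr8:84208672-84208758 and that of miR-24-2 at chr8:84208815-84208921, all on the plus strand. miR-24-2-5p, the other strand of the last hairpin, had 145 reads against 81, a ratio of 1.60 (1.21 to 2.12).

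miR-10a-5p and miR-10b-5p, which are encoded inside the Hox clusters and differ at 1 base, had nearly the same counts, and a read that matched both was counted for each. miR-10b-5p had 207 reads in 4T1 EVs and 66 in 4TO7 EVs, a ratio of 2.80 (2.11 to 3.75). In cells it had 3260 reads in 4T1 and 6 in 4TO7, a ratio of 160. For miR-10a-5p the EV libraries held 192 and 62 reads, a ratio of 2.76 (2.06 to 3.74), and 3147 and 6 in cells, a ratio of 155. The 4TO7 EV level of miR-10b-5p was 1277 RPM, in a library from a line whose cells had 6 of 177647 listed miRNA reads. Neither EV call was made with a minimum of 16 nt or when scaled to genome-aligned or to all reads.

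Other abundant miRNAs were higher by 2- to 3-fold. miR-21a-5p, a miRNA raised in many tumours, had 2235 reads in 4T1 EVs and 794 in 4TO7 EVs, a ratio of 2.51 (2.31 to 2.73), and its ratio in cells was 0.976. miR-22-3p had 827 and 315 reads, a ratio of 2.34 (2.05 to 2.67). miR-125a-5p had 1607 and 622 reads, a ratio of 2.30 (2.10 to 2.53). miR-7a-5p, a miRNA that represses Egfr, had 313 and 111 reads, a ratio of 2.52 (2.02 to 3.15). Its relative miR-7b-5p, with 278 and 106 reads and a ratio of 2.34 (1.86 to 2.95), was not called. None of these calls was made with a minimum of 16 nt or when scaled to genome-aligned or to all reads. The lowest log2 ratios over the alternatives were 0.28 for miR-21a-5p, 0.20 for miR-22-3p, 0.57 for miR-125a-5p and 0.32 for miR-7a-5p. In cells the ratios of miR-22-3p, miR-125a-5p and miR-7a-5p were 1.21, 0.728 and 1.38.

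The entry with the most reads in 4T1 EVs was miR-5099, with 8545 reads in 4T1 EVs, 2112 in 4TO7 EVs, 94 in 4T1 cells and 31 in 4TO7 cells. It took 14.7% of the listed miRNA reads of 4T1 EVs. Its ratio was 3.61 (3.44 to 3.79). Its longest listed reads were 20 nt, with 2180 in 4T1 EVs and 451 in 4TO7 EVs, and none was listed at 21 nt. No reference sequence was found for this entry, so whether it is long enough to list such reads was not tested. miR-1949 had 351 and 93 reads, a ratio of 3.37 (2.67 to 4.28), and its most frequent form, 258 reads in 4T1 EVs and 74 in 4TO7 EVs, was 22 nt long and started 2 bases inside the annotated 5′ end. miR-1981-5p had 53 and 11 reads, a ratio of 4.30 (2.22 to 9.12), and was not called with a minimum of 16 nt or when scaled to genome-aligned or to all reads.

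In the other direction, the let-7 and miR-98 family stood out by its share of the listings. Its 11 compared members took 26.5% of the miRNA listings in 4T1 EVs and 52.2% in 4TO7 EVs. These are not shares of separate reads, since a read could be listed under several members. let-7a-5p lies within 1 mismatch over its first 18 bases of let-7b-5p, let-7c-5p, let-7e-5p, let-7f-5p and miR-98-5p. Of the 11, 5 were lower in 4T1 EVs, beside 14 of 82 (17.1%) over all compared miRNAs. These 5 calls are not independent of each other. None was higher, 9 had log2 ratios below 0, and the median was −0.95 beside 0.14 over all 82. let-7a-5p, ranked first in 4TO7 EVs, had 3338 reads in 4T1 EVs and 7102 in 4TO7 EVs, a 2.38-fold lower RPM in 4T1 EVs (interval 2.29 to 2.49). let-7c-5p had 2650 and 5491 reads and was 2.32-fold lower (2.22 to 2.43). let-7f-5p had 1752 and 3924 reads and was 2.51-fold lower (2.37 to 2.66). let-7d-5p had 250 and 618 reads and was 2.77-fold lower (2.39 to 3.22).

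let-7e-5p had the lowest ratio of the family, with 598 reads in 4T1 EVs and 2166 in 4TO7 EVs, which was 4.06-fold lower (3.71 to 4.45). The members without a call included let-7b-5p, 1.93-fold lower (1.83 to 2.04), and let-7g-5p with 952 and 986 reads, 1.16-fold lower (1.06 to 1.27). let-7i-5p went slightly the other way, with 1624 and 1265 reads and a ratio of 1.14 (1.06 to 1.23). In cells, let-7a-5p had 27744 reads in 4T1 and 12920 in 4TO7, a ratio of 0.632, and let-7e-5p had 8132 and 2800 reads, a ratio of 0.855. let-7c-5p had a ratio of 0.546 in cells. let-7b-5p, at 0.476, was called lower in 4T1 cells, and no other compared member was called there.

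The family's difference depended on read length, as the plot of read lengths per miRNA shows. let-7a-5p reads of 22 nt, the full mature length, numbered 2162 in 4T1 EVs and 5637 in 4TO7 EVs, whereas reads of 16 nt numbered 7476 and 2200. Reads of 16 nt made up 69.0% of let-7a-5p reads of 16 nt or more in 4T1 EVs and 23.5% in 4TO7 EVs. let-7e-5p had 302 and 1655 reads of 22 nt and 3235 and 1366 reads of 16 nt. let-7g-5p had 527 and 783 reads of 22 nt and 7087 and 1901 reads of 16 nt, and let-7i-5p had the same 16 nt counts. All miRNA reads of 16 nt numbered 9725 in 4T1 EVs and 3262 in 4TO7 EVs. The same 16 nt reads were thus listed under several members, and these counts are not separate results. When reads of 16 nt or more were summed, which added these shared reads to several members, the family median moved to −0.01. None of the 5 remained called lower. The median was −0.66 for reads of 21 nt or more, where let-7a-5p, let-7c-5p and let-7f-5p were not called.

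miR-122-5p, the dominant miRNA of hepatocytes, had the lowest ratio of all 82. It had 160 reads in 4T1 EVs and 1092 in 4TO7 EVs, while the cells of both lines had 1 read each. It was 7.65-fold lower in 4T1 EVs (6.48 to 9.09) and stood at 21123 RPM in 4TO7 EVs. Both its main read forms were lower: 603 against 1545 reads of 17 nt and 142 against 1001 reads of 21 nt. Of the erythroid markers, miR-451a had 2 reads in 4T1 EVs, 9 in 4TO7 EVs and 0 in the cells of both lines. miR-486-5p, listed under that name and not as miR-486a-5p, had 14 and 31 reads in EVs and 7 and 2 in cells. miR-451a and miR-486-5p were thus also lower in 4T1 EVs, at few reads. The other erythroid markers did not share this direction, with 1 and 0 reads for miR-144-5p and 0 in both for miR-144-3p. In the wider list of liver and blood miRNAs, miR-192-5p had 19 and 9 reads, miR-126a-3p 13 and 1, and miR-194-5p 0 and 1. The myeloid marker miR-223-3p had 0 reads in both EV libraries, and miR-142-5p had 2 and 4. Whether RNA from outside the cultured cells entered either library was not tested.

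miR-26a-5p, which represses Ezh2 and other growth regulators, had 130 reads in 4T1 EVs and 594 in 4TO7 EVs and was 5.12-fold lower (4.23 to 6.24). miR-148a-3p had 553 and 1194 reads and was 2.42-fold lower (2.19 to 2.68). It was not called with a minimum of 21 nt, under TMM scaling or without entries of short reads in the library size. miR-674-3p had 15 and 62 reads and was 4.63-fold lower (2.61 to 8.77). In cells the ratios of 4T1 to 4TO7 for these 3 miRNAs were 0.487, 0.496 and 0.410, none of which was called.

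Both strands of the miR-423 hairpin were lower in 4T1 EVs. miR-423-3p had 29 reads in 4T1 EVs and 149 in 4TO7 EVs and was 5.76-fold lower (3.85 to 8.90), and miR-423-5p had 89 and 213 reads and was 2.68-fold lower (2.09 to 3.48). In cells their ratios were 1.11 and 1.39. miR-423-5p was not called in EVs with a minimum of 21 nt, under TMM scaling or without entries of short reads in the library size.

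miR-181a-5p and miR-125b-1-3p were lower in 4T1 EVs but higher in 4T1 cells. miR-181a-5p, known for its role in lymphocyte development, had 143 reads in 4T1 EVs, 342 in 4TO7 EVs, 296 in 4T1 cells and 23 in 4TO7 cells. It was 2.68-fold lower in EVs (2.20 to 3.28) and 3.79-fold higher in cells. Most of its EV reads were 19 nt long, 125 in 4T1 EVs and 307 in 4TO7 EVs. It was not called in EVs under TMM scaling or without entries of short reads in the library size. miR-181b-5p and miR-181d-5p, which share the seed ACAUUCA, had EV ratios of 0.916 and 0.918 and were not called. In cells they were called higher in 4T1, at 4.81-fold and 4.99-fold. The family median of 3 members was −0.13, and it turned to 0.05 under TMM scaling and to 1.92 for reads of 21 nt or more. At that length miR-181b-5p had 29 and 10 reads, miR-181d-5p had 27 and 9, and miR-181a-5p had 8 and 9, a log2 ratio of 0.27.

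miR-125b-1-3p had 79 reads in 4T1 EVs, 221 in 4TO7 EVs, 3900 in 4T1 cells and 520 in 4TO7 cells. It was 3.14-fold lower in EVs (2.42 to 4.11) and 2.21-fold higher in cells. The EV call was not made with a minimum of 21 nt. Its partner strand miR-125b-5p, a miRNA with targets among apoptosis and growth genes, went the other way in EVs, with 5178 and 2643 reads and a ratio of 1.75 (1.67 to 1.83). The ratio of 5p to 3p reads of this hairpin was thus 5.48 times as high in 4T1 EVs as in 4TO7 EVs (4.20 to 7.21). miR-125b-5p is also cut from a second hairpin, so that its reads cannot all be assigned to this one.

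A further 3 hairpins had both strands among the 82 miRNAs, and in each the strands differed in ratio. For miR-99b, the 5p strand had 1279 and 1258 reads and the 3p strand 17 and 77, and the ratio of 5p to 3p was 4.60 times as high in 4T1 EVs (2.68 to 8.35). For miR-423 it was 2.14 times as high (1.32 to 3.56). For miR-24-2 it was 0.423 times as high (0.314 to 0.572), where the 3p strand is again shared with a second hairpin.

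Neighbouring hairpins also differed. The hairpin of let-7e at chr17:17830352-17830444 and that of miR-125a at chr17:17830812-17830879 lie on the plus strand within 10 kb of each other, yet the log2 ratio was −2.02 for let-7e-5p and 1.20 for miR-125a-5p. The mature miR-99b-5p of the same stretch had −0.14. In contrast, let-7a-5p, let-7f-5p and let-7d-5p, with hairpins on chromosome 13, gave −1.25, −1.33 and −1.47. let-7a-5p and let-7f-5p lie within 1 mismatch over their first 18 bases and so shared reads. let-7f-5p is also cut from a second hairpin on the X chromosome, beside that of miR-98, and miR-98-5p gave −0.41. The hairpins of miR-182 and miR-183 on chromosome 6 gave 0.84 and 0.86.

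Of the 48 miRNAs without a call, 18 had intervals wholly above a ratio of 1, 11 had intervals wholly below it and 19 had intervals that held it. The 6 compared members of the oncogenic miR-17-92 cluster and its paralogs had log2 ratios above 0, with a median of 0.64, and none was called. The intervals of miR-25-3p and miR-106a-5p held 1. miR-20a-5p had 233 reads in 4T1 EVs and 130 in 4TO7 EVs, a ratio of 1.60 (1.28 to 2.00), and miR-25-3p had 395 and 326, a ratio of 1.08 (0.931 to 1.26). miR-182-5p and miR-183-5p, sensory-organ miRNAs that are high in many carcinomas, had ratios of 1.78 (1.66 to 1.92) and 1.81 (1.69 to 1.94).

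The miR-99 and miR-100 family, which represses Mtor, lay on the other side. miR-99a-5p had 821 and 1238 reads, 1.69-fold lower in 4T1 EVs (1.55 to 1.85), and miR-100-5p, which differs from it at 1 base, had 830 and 1254, also 1.69-fold lower (1.55 to 1.85). miR-221-3p had 61 and 99 reads and was 1.82-fold lower (1.31 to 2.55). The median of the 3 compared members of the miR-29 family, which represses collagens, was 0.32, and it turned to −0.07 when scaled to genome-aligned reads.

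**Figure D2:**
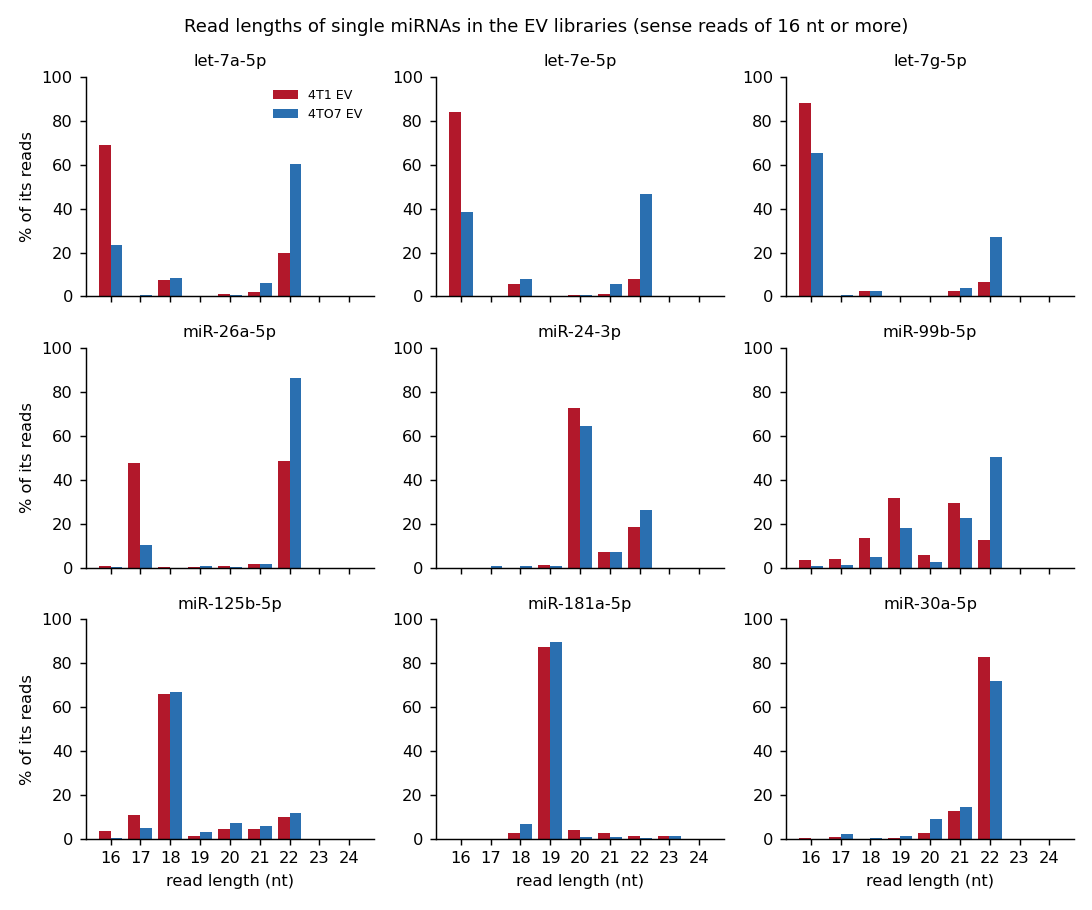
Share of each miRNA's sense reads of 16 nt or more (vertical axis, %) by read length (horizontal axis, nt) for 9 miRNAs in 4T1 EVs (red) and 4TO7 EVs (blue), 1 library each. The 16 nt bar of let-7a-5p is at 69.0% in 4T1 EVs and 23.5% in 4TO7 EVs, whereas the 18 nt bars of miR-125b-5p are at 65.8% and 66.9%.

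Shorter miRNA reads were more frequent in 4T1 EVs. Among reads of 16 nt or more that matched a miRNA, reads of 22 nt were 21.2% in 4T1 EVs (interval 20.8 to 21.5) and 38.6% in 4TO7 EVs (38.1 to 39.1). Reads of 18 nt were 24% (23.7 to 24.3) and 15.6% (15.26 to 15.98), and reads of 16 nt were 17.02% (16.7 to 17.3) and 8.48% (8.20 to 8.76). Reads of 18 nt numbered 13714 and 6009, of which miR-5099 had 5830 and 1542 and miR-125b-5p 3964 and 1866. The difference at 18 nt thus rested largely on these entries. A 16 nt read was listed under 5.96 miRNAs on average in 4T1 EVs and 5.64 in 4TO7 EVs, whereas a 22 nt read was listed under 1.47 and 1.83. Summed listings therefore weigh short reads of large families more than single miRNAs.

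The shift was present in most miRNAs, though not in all. Over the 65 miRNAs with enough reads in both libraries, the share of reads of 21 nt or more among those of 16 nt or more was lower in 4T1 EVs for 45 and higher for 16. The medians were 41.7% in 4T1 EVs and 59.0% in 4TO7 EVs. Among reads of 18 nt or more, the most frequent length was the same in both libraries for 48 of 63 miRNAs, shorter in 4T1 EVs for 13 and longer for 2. Among reads of 16 nt or more it was the same for 44 of the 63. Reads began at the annotated first base in a median of 99.6% of cases in both libraries, so the forms differed mainly at the 3′ end.

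Single miRNAs had their own forms. miR-22-3p had 382 reads of 19 nt in 4T1 EVs and 62 in 4TO7 EVs, but 291 and 195 of its full 22 nt. miR-24-3p had 1559 and 328 reads of 20 nt and 399 and 134 of 22 nt, so both forms were higher in 4T1 EVs. miR-26a-5p had 122 and 575 reads of 22 nt but 120 and 70 of 17 nt. miR-99b-5p, without a call, had 435 and 230 reads of 19 nt and 171 and 646 of 22 nt. miR-182-5p had 323 and 24 reads of 22 nt but 104 and 253 of its full 25 nt. miR-125b-5p, by contrast, had its most frequent form at 18 nt in both libraries, with 3961 and 1863 reads.

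The calls moved with the minimum read length. Of the 20 miRNAs higher at 18 nt, 7 were called higher at 16 nt and 13 at 21 nt, where 4 of the rest fell under 50 reads. Of the 14 lower at 18 nt, 9 were called lower at 16 nt and 6 at 21 nt, where 2 fell under 50 reads. miR-200b-3p, miR-200c-3p, miR-146a-5p, miR-30e-5p and miR-24-3p were called higher at all 3 lengths, and miR-122-5p, miR-26a-5p, miR-423-3p and miR-99b-3p were called lower at all 3. The library sizes also moved: summed listings were 121005 and 73081 at 16 nt and 27081 and 36417 at 21 nt.

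The line difference in EVs was then set beside that in cells, in 2 comparisons that share no library. Between cells, 28 of 208 miRNAs (13.5%) were called higher in 4T1 and 11 (5.29%) lower, 18.8% in all. Of the 20 miRNAs higher in 4T1 EVs, 12 were called higher in 4T1 cells, 7 were not called, and 1 had too few reads. Of the 14 lower in 4T1 EVs, none was called lower in 4T1 cells, 2 were called higher, 11 were not called and 1 had too few reads. By the sign of the log2 ratio alone, 17 of the 20 and 9 of the 14 had the same direction in cells. Across the 80 miRNAs compared in both, Pearson's r of the log2 ratios was 0.74 and Spearman's rho 0.45. Without miR-200a-3p, miR-200b-3p, miR-200c-3p, miR-206-3p, miR-146a-5p, miR-10a-5p and miR-10b-5p, left out after their values were seen, both were 0.28 over 73 miRNAs. These are descriptions across miRNAs, which share reads and library sizes.

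**Figure D3:**
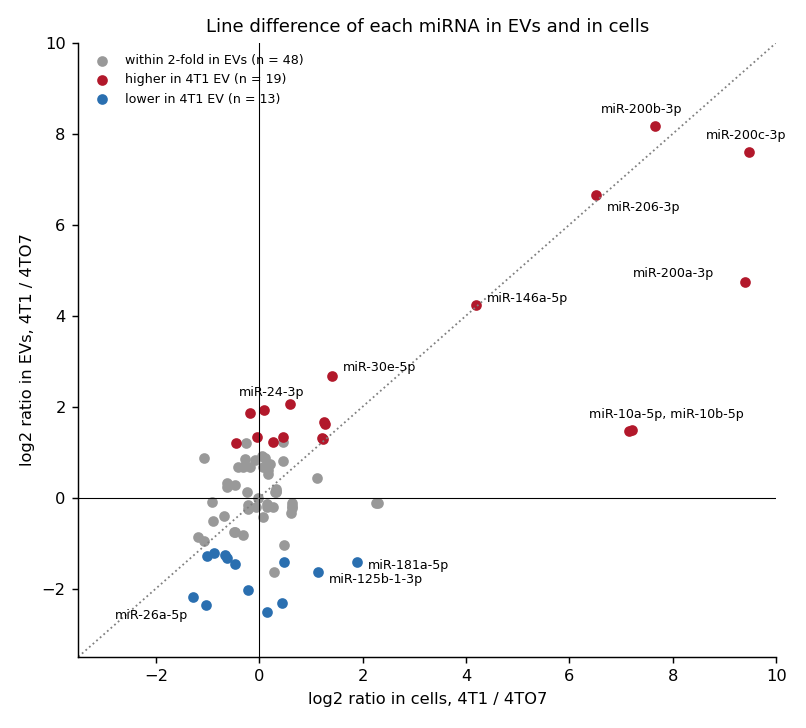
Log2 ratio of RPM in 4T1 over 4TO7 in cells (horizontal axis) and in EVs (vertical axis) for 80 miRNAs, 1 library per group, with 0.5 reads added to each count; the dotted line marks equal ratios. miR-200 members, miR-206-3p and miR-146a-5p lie far above 0 on both axes, miR-10a-5p and miR-10b-5p lie near 7 in cells and near 1.5 in EVs, and miR-181a-5p and miR-125b-1-3p lie below 0 in EVs and above 0 in cells.

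The labelled origin was checked against marker miRNAs. Of 6 epithelial markers, 5 had reads in 4T1 EVs, with a sum of 384 reads, and 3 had reads in 4TO7 EVs, with a sum of 5. The cells had 3922 and 42. miR-205-5p, an epithelial miRNA outside the miR-200 family, had 0 reads in 4T1 EVs and 1 in 4TO7 EVs, and 0 and 41 in the cells. The 5 mesenchymal markers summed to 24 and 16 reads in EVs, and the 2 endothelial markers to 13 and 1. The neural marker miR-124-3p and the lymphoid marker miR-150-5p were at 0 in both EV libraries.

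Beyond miRNAs, the EV libraries differed in the lengths of all their reads. Reads of 24 nt were 16.1% of all reads in 4T1 EVs and 7.26% in 4TO7 EVs, and reads of 20 nt were 12.2% and 7.51%. Reads of 22 nt were 7.17% and 11.9%. Reads of 30 nt formed a second peak in both, at 14.3% and 16.1%. Reads of 31 to 33 nt made up 1.88% in 4T1 EVs and 8.99% in 4TO7 EVs, beside 8.25% in 4T1 cells and 9.77% in 4TO7 cells. Counting intervals of these shares were narrower than 0.1 percentage points.

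**Figure D4:**
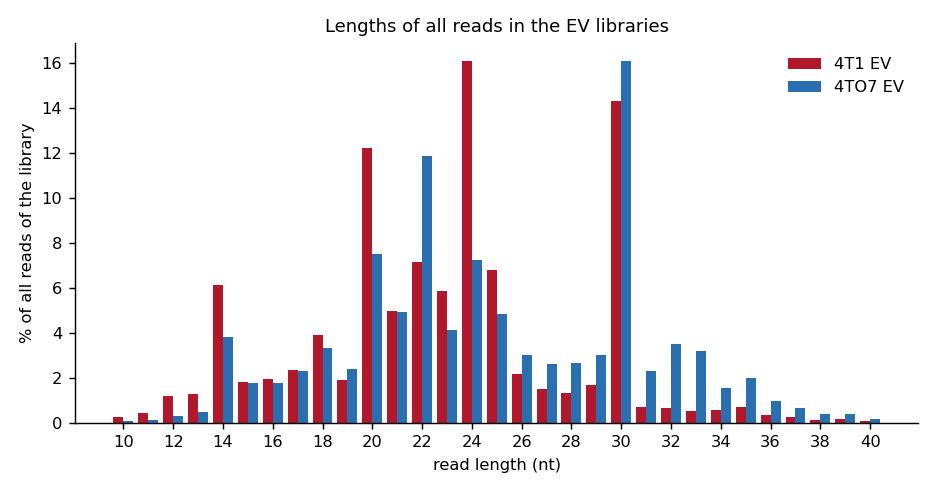
Share of all reads of each EV library (vertical axis, %) by read length from 10 to 40 nt (horizontal axis), for 4T1 EVs (red) and 4TO7 EVs (blue), 1 library each. 4T1 EVs have the higher bars at 20 and 24 nt (12.2% and 16.1%), and 4TO7 EVs have the higher bars at 22 nt (11.9%) and from 31 to 33 nt.

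Regions of the genome were compared next. The authors' tables list 684 regions of mm9 in 4T1 EVs and 465 in 4TO7 EVs, with at least 1300 and 1305 alignments each. Reads were listed at up to 6 positions, so regions of repeated sequence hold the same reads and their shares do not add up. Of the 4T1 EV regions 311 (45.5%) overlapped a 4TO7 EV region, and of the 4TO7 EV regions 312 (67.1%) overlapped a 4T1 EV region, which gave 301 merged regions. Their median log2 ratio of alignments per genome-aligned read was 0.04. Past 2-fold, 43 regions (14.3%) were higher in 4T1 EVs and 37 (12.3%) were lower, 26.6% in all.

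The largest regions in both libraries were 11 that the authors' 4T1 EV table labels as U2 snRNA or snRNA. U2 is a core RNA of the spliceosome. The region at chr8:53422336-53422386 (mm9, as listed) held alignments equal to 33.8% of the genome-aligned reads in 4T1 EVs and 20.1% in 4TO7 EVs. The 11 regions were 1.55- to 1.90-fold higher in 4T1 EVs and so stayed within 2-fold. Several of them were listed over 75 nt in 4T1 EVs but 50 nt in 4TO7 EVs, so their totals compare unequal spans. An example is chr11:101466254-101466329 in 4T1 EVs and chr11:101466254-101466304 in 4TO7 EVs. A region labelled as a B1 repeat, at chr7:86688715-86688744, had 5.19% and 3.79%.

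The regions that differed most carried no label. The lowest ratio was at chr8:120848350-120848376, with 4813 alignments in 4T1 EVs and 151850 in 4TO7 EVs, which was 46.5-fold lower per genome-aligned read in 4T1 EVs. All of its 4T1 EV alignments were on the forward strand, against 60.3% of those in 4TO7 EVs. The next were chr13:21259995-21260020, 30.8-fold lower, and chr8:87635768-87635868, 20.7-fold lower. The highest ratio was at chr6:94776852-94776877, with 76686 and 8516 alignments and 6.11-fold higher in 4T1 EVs. It was followed by chr8:91532666-91532691, 5.66-fold higher, and chr19:29099057-29099085, 5.54-fold higher.

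**Figure D5:**
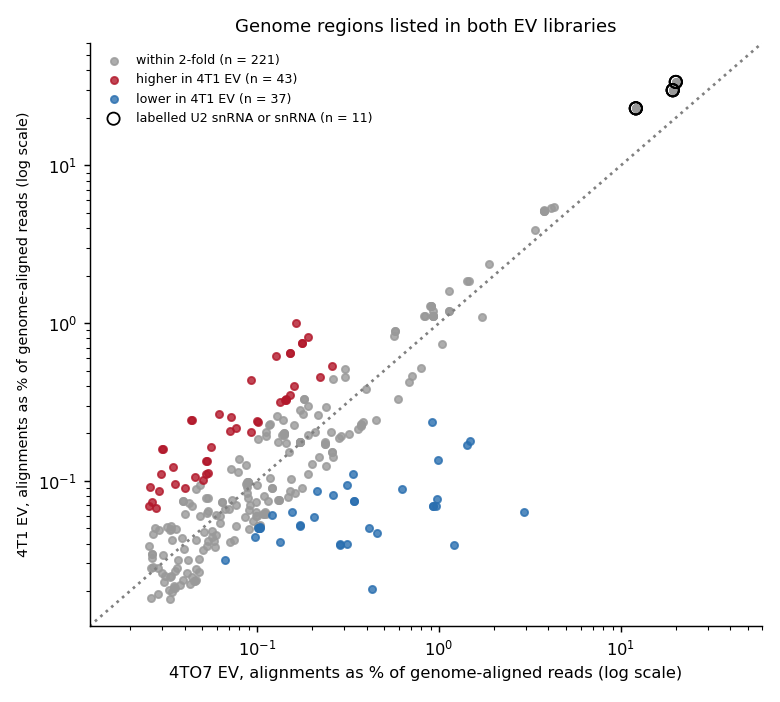
Alignments as a percentage of genome-aligned reads in 4TO7 EVs (horizontal, log scale) and 4T1 EVs (vertical, log scale) for the 301 regions listed in both libraries, 1 library each. The 43 regions more than 2-fold higher in 4T1 EVs are red, the 37 lower ones blue, and circles mark the 11 regions labelled U2 snRNA or snRNA, which lie at the upper right within 2-fold of equality (dotted line).

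Regions listed in 1 EV library only numbered 373 in 4T1 EVs and 153 in 4TO7 EVs. The largest in 4T1 EVs, at chr8:124176057-124176082, had 51027 alignments, or 0.669% of the genome-aligned reads. The largest in 4TO7 EVs, at chr1:173033191-173033241, had 355194 alignments, or 6.87%, with 208282 on the forward and 146912 on the reverse strand. The next, at chr3:96962025-96962075, had 157039 alignments, or 3.04%, also on both strands. Of the regions listed in 1 library only, 106 of the 373 and 20 of the 153 overlapped a region listed in either cell library, beside 154 of the 301 listed in both EV libraries. A region that is not listed may have had up to the lowest listed total.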

How the data were processed

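Small RNA of 2 EV and 2 cell libraries was sequenced in a shared lane, per the labels. Trimming, alignment and interval steps used cutadapt, Bowtie and bedtools on mm9, per the submitters' processing notes; versions are not given in the sources used here. The alignment logs deposited by the authors report matches with at most 1 mismatch, up to 6 genome positions and up to 10 mature miRNAs per read. The deposited miRNA tables hold raw counts of reads per miRNA, strand, start and length from 10 nt up, and the deposited region and length tables hold raw counts too. A column headed as a percentage in the 4T1 EV table equalled RPM of all reads in 1030 of 1030 filled lines deposited by the authors, and was not used.

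Sense counts of 18 nt or more were summed per miRNA and compared with exact conditional binomial (Clopper-Pearson) 95% intervals (Python 3.11.15, numpy 2.4.6, pandas 2.3.3, scipy 1.17.1). Log2 ratios had 0.5 reads added, and the minimum was 50 reads in either library. With 1 library per group no test between conditions was made, and no p-value is given. TMM factors came from edgeR 4.0.16 and median-of-ratios factors from DESeq2 1.42.0 in R 4.3.3. Alternatives were other read lengths, minimums, library sizes, strands and overlaps. The steps were tested on simulated counts. Regions were merged where they overlapped by 1 nt or more. Coordinates of regions are mm9 as listed by the authors, and those of miRNAs are RefSeq GRCm38.p6, and the builds were not mixed. Named miRNAs were the 12 highest and 12 lowest ratios among those called, the 10 with most reads in each EV library and up to 4 of each list; named regions were the 10 largest of each library and the extremes. The comparison, the miRNA lists and these rules were chosen with earlier results of these data known, and further miRNAs are named where a count or a partner strand called for it, after their values were seen.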

Additional observations from a re-analysis of the deposited data

Results flagged for a closer look

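miR-181a-5p and miR-125b-1-3p were picked out because their line difference had opposite directions in EVs and in cells. The log2 ratio of 4T1 to 4TO7 was −1.42 in EVs and 1.89 in cells for miR-181a-5p, and −1.64 in EVs and 1.14 in cells for miR-125b-1-3p. The EV value of miR-181a-5p rested on reads of 19 nt (125 in 4T1 EVs and 307 in 4TO7 EVs). With a minimum of 21 nt it had 8 and 9 reads and a log2 ratio of 0.27. The difference between EVs and cells was not tested, since each value compares 1 library with 1 library.

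Antisense reads, which the comparisons did not use, made up 3.02% of the listed reads in 4T1 EVs and 1.09% of those in 4TO7 EVs, again from 18 nt up. Most belonged to miR-3074-5p, with 1590 antisense reads in 4T1 EVs, 336 in 4TO7 EVs, 3892 in 4T1 cells and 1024 in 4TO7 cells. miR-3074-2-3p had 129, 65, 54 and 45. Each of these miRNAs is the reverse complement of a miR-24 strand over 20 bases, of miR-24-3p in the first case and of miR-24-2-5p in the second.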

How the results depend on the processing

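The counts of calls moved with read length and with the library size. The 20 higher calls became 8 of 98 miRNAs with a minimum of 16 nt, 62 of 252 with all listed lengths, 13 of 45 with a minimum of 200 reads, 11 of 82 when scaled to genome-aligned reads or to all reads, and 9 of 82 when the let-7 family and entries of short reads were left out of the total, an alternative added after seeing the data. The 14 lower calls became 6 of 64 with a minimum of 21 nt, 22 of 164 with a minimum of 10 reads, 22 of 387 with a minimum of 1 read, and 8 of 59 when miRNAs of the same seed were summed, which leaves fewer features. The median log2 ratio of 0.14 became 0.78 at 21 nt, −0.26 with genome-aligned reads and −0.29 without the let-7 family and short reads. The median over genome regions of 0.04 became 0.26 for regions of 5000 or more alignments. The cause of these shifts was not tested beyond the sums themselves. miR-206-3p turned from higher to −0.075 with a minimum of 16 nt and −0.54 with all lengths, and miR-151-3p from −0.00 to 1.49 with all lengths.

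Of the 34 calls, 10 kept their direction and call under all 15 alternatives that give a value per miRNA: miR-200a-3p, miR-200b-3p, miR-200c-3p, miR-146a-5p and miR-30e-5p higher, and miR-674-3p, miR-99b-3p, miR-26a-5p, miR-423-3p and miR-122-5p lower. An alternative that leaves a miRNA under its minimum was not counted against it. Few miRNA reads limit precision: an EV library without a read of a miRNA can hide up to 3. No paired analysis was possible because each group had 1 library and no shared replicate numbers, and for the same reason no replicate could be left out.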

Other observations

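Several miRNAs with fewer than 50 reads in both EV libraries had most of them in 4T1 EVs. They are named after their values were seen. miR-141-3p, a miR-200 family member, had 35 reads in 4T1 EVs, 2 in 4TO7 EVs, 215 in 4T1 cells and 0 in 4TO7 cells. miR-155-5p, a miRNA of activated immune cells that is also raised in tumours, had 19 and 1 reads in EVs and 403 and 26 in cells. miR-126a-3p, a miRNA of endothelial cells, had 13 and 1 in EVs and 83 and 33 in cells. The miRNAs listed for the Sfmbt2 intron cluster, 80 in the tables, had 321 summed reads in 4T1 EVs and 81 in 4TO7 EVs, with no member reaching 50 reads. miR-92a-3p, a member of the miR-17-92 cluster, had 29 and 49 reads in EVs and 520 and 64 in cells.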
